A study of Homo sapiens with 14 samples.

Results

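Depletion of SAF-A for 3 h was studied in 4 RNA sequencing libraries of a time course in HCT116 cells, a human colon carcinoma line. The libraries were chosen by their titles, which give 2 libraries treated for 3 h with 5-Ph-IAA and 2 treated with the solvent DMSO (vehicle), with neither Nutlin nor the word control in the title. They are 4 of the 14 libraries of the series. All 14 came from cells that carry osTIR1(F74G), an auxin receptor, and SAF-A-mAID-Halo, a tagged form of the SAF-A protein, so the vehicle cells carry both as well. The other groups, also of 2 libraries each, are 12 h of 5-Ph-IAA in the same time course and a second set with vehicle (DMSO) and 3 h of 5-Ph-IAA, both with control in their titles, with 2 further groups that received Nutlin, an MDM2 inhibitor, alone or with 5-Ph-IAA. The labels do not say whether the line is 1 clone or whether replicates were separate cultures, so p-values measure the spread between these libraries, which may be technical. No 5-Ph-IAA-treated cells without the tag were analysed here, so effects of the compound itself and of the loss of SAF-A cannot be told apart.

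SAF-A, the product of HNRNPU, binds RNA and chromatin and is a main protein of the nuclear matrix, the RNA and protein scaffold left after soluble nuclear contents are extracted. It is known for its part in chromatin organisation, in the retention of some long noncoding RNAs on chromosomes, and in splicing. In the auxin system, 5-Ph-IAA joins the tagged protein to osTIR1, which directs ubiquitin to it and so sends it to the proteasome. The mRNA is not the target, and the HNRNPU transcript therefore does not check the depletion. SAF-A protein was not measured in these files.

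HNRNPU mRNA stood at 504 and 534 CPM (counts per 1000000 counts of the library, scaled with TMM factors) in the vehicle libraries and at 518 and 545 CPM after 3 h. The levels of the 2 groups overlapped, and the log2 fold change was 0.03 ± 0.06 (SE, n = 2 against 2; edgeR adjusted p = 0.936). The 4 libraries held 33493147 to 35140464 expected counts, the fractional read counts that RSEM assigns to genes. Of 24 colon epithelium markers, 12 had a mean of at least 1 TPM (transcripts per 1000000 transcripts), and of 30 markers of other cell types, 2 did. The summed TPM of the latter was 6.22 to 8.42 in each library, against 4780 to 5010 for the colon markers. The epithelial genes EPCAM, KRT8, KRT18 and KRT19 were high, while the colon genes CDX1, MUC2, TFF3, FABP1, CEACAM5 and CEACAM6 were listed at 0 in all 4 libraries, as were the lymphocyte genes CD3E and MS4A1. Small structural RNAs took 4.961% and 5.024% of counts in vehicle and 5.613% and 5.267% after 3 h. The first principal component, with 41.4% of the variance, set vehicle replicate 2 (score 70) apart from the other libraries (scores from -43 to -8.2). The spread between the vehicle replicates (a biological coefficient of variation of 0.145) was wider than that between the 3 h replicates (0.0997).

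At 3 h a small set of genes had changed, and most of them had risen. Genes of growth factor signalling (AREG, EPHA2, DUSP5), targets of the YAP and TEAD factors (CCN1, AMOTL2) and secreted or matrix-bound proteins (THBS1, DKK1) rose 1.43-fold to 2.66-fold, while FOS, a subunit of the AP-1 transcription factor, fell. In all, 17 of 17965 genes passed an adjusted p of 0.05 in the edgeR quasi-likelihood test (0.0946%). Of these, 15 rose (0.0835%) and 2 fell (0.0111%), and 13 had more than 3 counts in every library. In bulk RNA, fewer cells with a transcript and less of it per cell cannot be told apart. At an unadjusted p of at most 0.05, 782 genes were higher (4.35%) and 631 lower (3.51%), and the median log2 fold change over all genes tested was -0.001. On simulated data with the depth and spread of these libraries, the test recovered 49.3% of 67 genes changed 1.5-fold and 90.9% of 66 changed 4-fold. A further 67 were changed 2-fold, all changed genes had a mean log2 CPM above 1, and 6 unchanged genes were called. Far more genes were changed there than the 17 called here, which eases an adjusted threshold, so recovery in the real data may be lower. The count moved with the libraries: leaving out vehicle replicate 1 gave 1168 genes, vehicle replicate 2 gave 210, and 3 h replicate 2 gave 27. All 17 were called again in each fit without a vehicle library, 13 of them without 3 h replicate 2, and 11 without 3 h replicate 1.

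**Figure D1:**
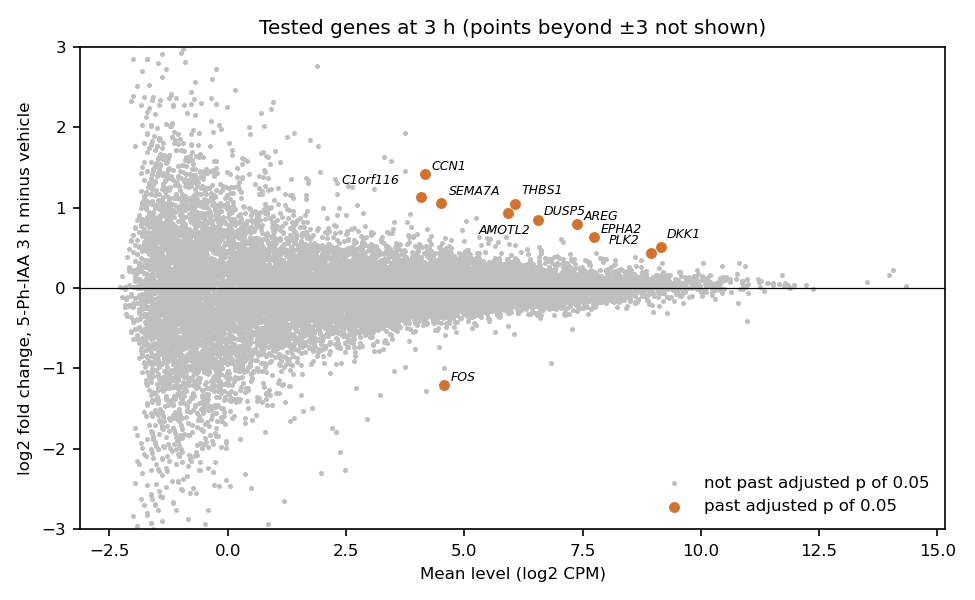
Log2 fold change after 3 h of 5-Ph-IAA (vertical axis) against the mean log2 CPM of the 4 libraries (horizontal axis) for the genes tested. Grey points did not pass an adjusted p of 0.05, and orange points are 11 of the 13 called genes with more than 3 counts in every library; 10 of the 11 lie above 0 and FOS lies below, and genes past a log2 fold change of 3 in size fall outside the plot.

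AREG, a ligand of the EGF receptor on chromosome 4 (74445134 to 74455009, GRCh38), gave the lowest p-value of all genes. Its level was 125 and 120 CPM in vehicle and 212 and 212 CPM after 3 h. Both treated libraries lay well above both vehicle libraries, and the log2 fold change was 0.79 ± 0.07 (SE, n = 2 against 2; edgeR adjusted p = 0.00565). DUSP5, a nuclear phosphatase that acts on ERK and is itself induced by ERK signalling (chromosome 10, 110497838 to 110511544), stood at 68.1 and 65.1 CPM in vehicle and at 118 and 123 CPM after 3 h. Its groups did not overlap either, with a log2 fold change of 0.85 ± 0.08 (edgeR adjusted p = 0.00565). EPHA2, an ephrin receptor kinase (chromosome 1, 16124337 to 16156087), went from 172 and 164 CPM to 257 and 266 CPM. This rise of 0.64 ± 0.07 on the log2 scale (edgeR adjusted p = 0.00752) was the smallest in proportion of the 3.

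Promoter sequences of AREG and EPHA2, the 100 bases before the RefSeq start (GRCh38.p14), are shown because both hold the cAMP response element TGACGTCA, which is in capitals. In EPHA2 the capitals also mark CATTCC, the TEAD hexamer GGAATG on the other strand.
AREG promoter (chr4:74445036-74445135, plus strand): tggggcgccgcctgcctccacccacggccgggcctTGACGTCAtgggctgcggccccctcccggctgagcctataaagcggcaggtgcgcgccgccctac
EPHA2 promoter (chr1:16156070-16156169, minus strand): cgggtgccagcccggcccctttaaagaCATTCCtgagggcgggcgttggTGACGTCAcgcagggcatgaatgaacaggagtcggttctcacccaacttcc
The element begins 65 bases before the start in AREG and 51 bases before it in EPHA2.

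The list of EGF receptor ligands and ERK feedback genes held 24 genes that were tested, and 3 of them passed, all higher: AREG, DUSP5 and EPHA2. At an unadjusted p of at most 0.05, 11 of the 24 were higher and 0 lower, beside 4.35% and 3.51% of all genes tested, and the median log2 fold change of the list was 0.17. ERRFI1, an inhibitor of the EGF receptor, stood at 354 and 320 CPM in vehicle and at 435 and 449 CPM after 3 h (log2 fold change 0.39 ± 0.07, edgeR adjusted p = 0.111). DUSP6, a cytoplasmic ERK phosphatase, was at 63.3 and 61.8 CPM and then at 86.7 and 83.7 CPM (0.45 ± 0.08, edgeR adjusted p = 0.126). HBEGF, another EGF receptor ligand, was at 12.8 and 8.76 CPM and then at 17.2 and 19.4 CPM (0.76 ± 0.19, edgeR adjusted p = 0.387). In these 3 genes the treated libraries lay above the vehicle libraries, as they did in 20.3% of all genes tested. None of the 3 passed the threshold in edgeR, and ERRFI1 and DUSP6 passed it in DESeq2, the other count test run on these libraries. TGFA, DUSP4, LIF, SPRY4 and EREG made up the rest of the 11. This number moved with the library left out, and so did the share of all genes higher at that p. With all 6 time-course libraries in the fit it was 11, beside 3.42% of all genes.

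CCN1, a matrix-associated signalling protein (chromosome 1, 85580761 to 85583962), had the largest fold change among the 13 called genes with more than 3 counts in every library. It stood at 10.7 and 9.05 CPM in vehicle and at 24.5 and 28.2 CPM after 3 h, 2.66-fold higher. The groups lay far apart beside the gap within each, and the log2 fold change was 1.41 ± 0.15 (edgeR adjusted p = 0.00752). AMOTL2, a scaffold protein that binds YAP and is one of its targets (chromosome 3, 134355874 to 134375479), went from 42.4 and 40.9 CPM to 75 and 84.5 CPM. Its log2 fold change was 0.94 ± 0.10 (edgeR adjusted p = 0.00715). In mean TPM, AMOTL2 went from 9.96 to 14.7, a smaller rise in proportion, and the reason was not tested.

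YAP is a coactivator that enters the nucleus when the Hippo kinases are quiet and acts through the TEAD factors. Of the 19 YAP and TEAD targets tested, CCN1 and AMOTL2 passed, and the median log2 fold change was 0.33. At an unadjusted p of at most 0.05, 11 of the 19 were higher and 0 lower, beside 4.35% and 3.51% of all genes tested. CCN2, a close relative of CCN1, stood at 2.48 and 2.81 CPM in vehicle and at 6.93 and 6.65 CPM after 3 h (log2 fold change 1.36 ± 0.25, edgeR adjusted p = 0.126). F3, tissue factor, was at 38.5 and 35.1 CPM and then at 55.8 and 57 CPM (0.61 ± 0.10, edgeR adjusted p = 0.0713). LATS2, a Hippo kinase and a YAP target at once, was at 10 and 9.92 CPM and then at 15.6 and 19.8 CPM (0.83 ± 0.16, edgeR adjusted p = 0.18). In mean TPM, LATS2 went from 1.78 to 2.22, a smaller rise in proportion. The treated libraries lay above the vehicle libraries in each of the 3, as they did in 20.3% of all genes tested. All 3 fell short of the threshold in edgeR, and F3 passed it in DESeq2. AJUBA, GADD45B, FJX1, CRIM1, NUAK2 and AXL were the remaining members of the 11. The number changed little without any 1 library, while the share of all genes higher at that p moved more. With all 6 time-course libraries in the fit it was 11, beside 3.42% of all genes.

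**Figure D2:**
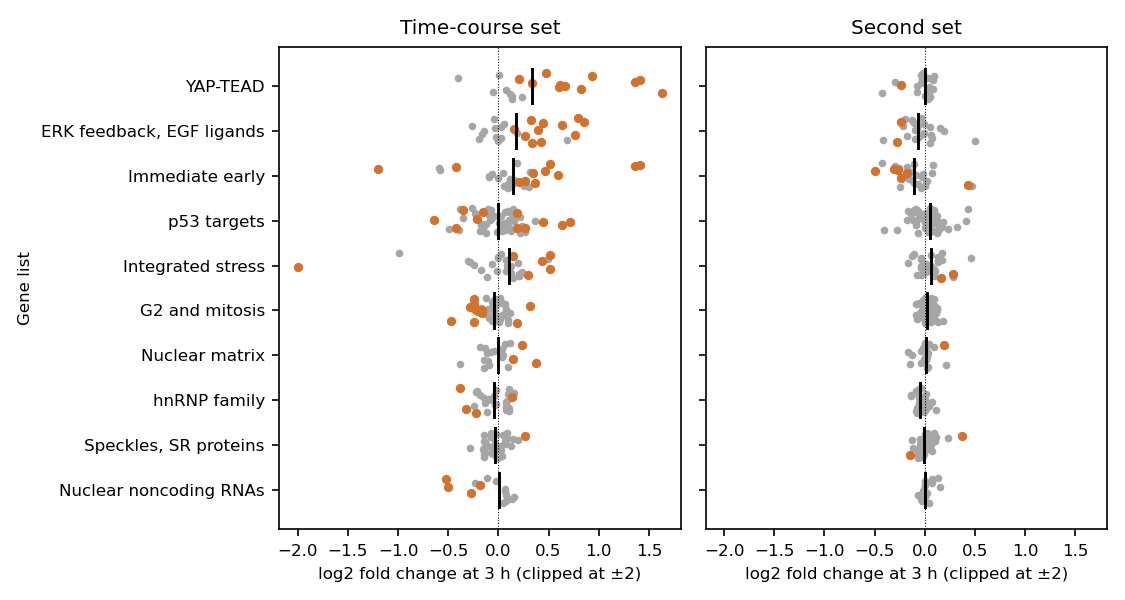
Log2 fold change after 3 h of 5-Ph-IAA (horizontal axis) for the members of 10 gene lists (vertical axis), in the time-course set on the left and in the second set on the right. Each point is a gene, orange at an unadjusted p of at most 0.05, and the black bar is the list's median; in the time-course set the YAP and TEAD list has the highest median of those shown, 0.33, and in the second set its median is -0.001.

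THBS1, thrombospondin 1, a secreted glycoprotein of the matrix (chromosome 15, 39581079 to 39599466), stood at 44.6 and 42.8 CPM in vehicle and at 84 and 96.3 CPM after 3 h. It rose by 1.05 ± 0.10 on the log2 scale (edgeR adjusted p = 0.00565), about 2.06-fold. Each treated library lay well above both vehicle libraries. SEMA7A, a membrane-anchored semaphorin (chromosome 15, 74409289 to 74433958), was at 13.4 and 16.1 CPM and then at 29.2 and 32.1 CPM, a log2 fold change of 1.06 ± 0.14 (edgeR adjusted p = 0.0172). Without 3 h replicate 1 its adjusted p was 0.0574, and without 3 h replicate 2 it was 0.0967.

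C1orf116, an androgen-regulated gene also called SARG (chromosome 1, 207018521 to 207032756), stood at 11.3 and 9.86 CPM in vehicle and at 24.1 and 22.3 CPM after 3 h. It rose 2.2-fold (log2 fold change 1.14 ± 0.14, edgeR adjusted p = 0.0169), and without 3 h replicate 1 the adjusted p was 0.123. DKK1, a secreted antagonist of Wnt signalling (chromosome 10, 52314296 to 52318042), went from 469 and 467 CPM to 683 and 655 CPM. Its rise was modest in proportion and narrow in error, 0.51 ± 0.06 on the log2 scale (edgeR adjusted p = 0.00778), with an adjusted p of 0.0571 without 3 h replicate 1. PLK2, a polo-like kinase that p53 and serum both induce (chromosome 5, 58453982 to 58460260), went from 422 and 411 CPM to 566 and 566 CPM (0.44 ± 0.06, edgeR adjusted p = 0.0172). Its adjusted p was 0.13 without 3 h replicate 1 and 0.0798 without 3 h replicate 2.

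The promoters of THBS1, DKK1 and C1orf116 are shown because each holds the TEAD hexamer, GGAATG or CATTCC on the other strand, which is in capitals.
THBS1 promoter (chr15:39580979-39581078, plus strand): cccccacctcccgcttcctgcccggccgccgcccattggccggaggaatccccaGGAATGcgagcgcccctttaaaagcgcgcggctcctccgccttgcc
DKK1 promoter (chr10:52314181-52314280, plus strand): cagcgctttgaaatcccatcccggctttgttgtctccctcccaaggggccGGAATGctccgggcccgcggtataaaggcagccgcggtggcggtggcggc
C1orf116 promoter (chr1:207032757-207032856, minus strand): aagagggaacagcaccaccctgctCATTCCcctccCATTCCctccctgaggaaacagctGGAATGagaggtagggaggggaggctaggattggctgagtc
The hexamer begins 46 bases before the start in THBS1, 50 in DKK1, 73 in EPHA2, and 76, 65 and 41 in C1orf116. Of the called genes, 9 had an entry in the RefSeq promoter table, in which the 250 bases before the start were searched on both strands. The hexamer was found in 4 of the 9 and in 11.9% of all 35116 promoters, and TGACGTCA in 2 of the 9 and in 1.65% of all. The AP-1 site TGANTCA was found in 0 of the 9 (6.57% of all) and the CArG box in 0 (1.16% of all). With 9 promoters and shares this small, finding 0 says little, and bases further from the start were not searched. AMOTL2, of the YAP and TEAD list, was among the 9 and held none of these motifs. The 4 genes with the hexamer do not stand in that list. These are matches of letters and not measured binding sites. DUSP5 and CCN1 were among the called genes without an entry.

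**Figure D3:**
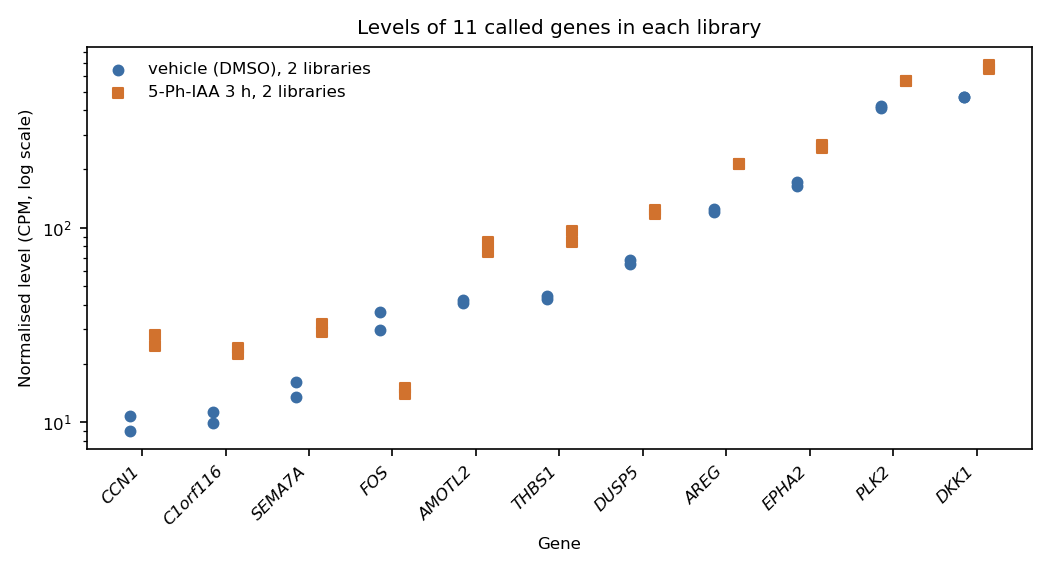
Level in each library, in CPM on a log axis (vertical), of 11 called genes with more than 3 counts in every library (horizontal axis), with vehicle as blue circles and 3 h of 5-Ph-IAA as orange squares, 2 libraries each. The squares lie above the circles in 10 genes and below them in FOS, and no gene's groups overlap.

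FOS, which pairs with JUN proteins in AP-1 (chromosome 14, 75278774 to 75282230), stood at 36.9 and 29.8 CPM in vehicle and at 15 and 13.9 CPM after 3 h. Both treated libraries were far below both vehicle libraries, and FOS fell by 1.20 on the log2 scale (SE 0.14, edgeR adjusted p = 0.0109), which is 2.3-fold. FOS is an immediate early gene, one of a group that growth factors and stress switch on within minutes. Of 28 such genes tested, CCN1 rose and FOS fell past the adjusted threshold, and the median log2 fold change was 0.14. At an unadjusted p of at most 0.05, 9 of the 28 were higher and 2 lower, beside 4.35% and 3.51% of all genes tested. CCN1 and CCN2 also stand in the YAP and TEAD list.

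JUN stood at 22.7 and 27.8 CPM in vehicle and at 37.9 and 38.1 CPM after 3 h (log2 fold change 0.59 ± 0.12, edgeR adjusted p = 0.22). MYC, a growth-promoting transcription factor, was at 216 and 227 CPM and then at 285 and 286 CPM (0.36 ± 0.07, edgeR adjusted p = 0.111). EGR1, a zinc-finger factor often induced with FOS, was at 11.2 and 12.9 CPM and then at 9.19 and 8.78 CPM (-0.42 ± 0.17, edgeR adjusted p = 0.612). JUN and MYC were thus higher in both treated libraries where FOS and EGR1 were lower, and of the 4 FOS alone passed in edgeR, with MYC also past the threshold in DESeq2. Without 3 h replicate 2, fewer members of the list were higher at an unadjusted p of at most 0.05. The share of all genes higher at that p was smaller there as well. With all 6 time-course libraries in the fit, 9 members were higher, beside 3.42% of all genes.

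Of the genes that passed with counts at or near 0 in 1 group, 3 are given here, and these had fractional counts, which RSEM gives where reads fit more than 1 feature, so their levels are uncertain. SLC2A3P1, a processed pseudogene of the glucose transporter gene SLC2A3 (chromosome 5, 168552277 to 168553727), had 0 and 0 counts in vehicle and 113.53 and 194.84 after 3 h. Against a floor of 3 counts over the vehicle group it was at least 102-fold higher, yet the vehicle libraries of the second set held 167.73 and 52.41 counts. C22orf46P (chromosome 22, 41688939 to 41698136) had 90.46 and 86.76 counts in vehicle and 0 and 0 after 3 h, at least 59.8-fold lower. ENSG00000293300 had 3.44 and 2.65 counts in vehicle and 82.49 and 104.26 after 3 h, a ratio of summed counts of 30.3. In each, at least 1 pair of replicates elsewhere in the series held 0 or a few counts in one library and more in the other.

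The genes next in order of p lay just outside the threshold. PLAU, the urokinase plasminogen activator, stood at 115 and 95.3 CPM in vehicle and at 159 and 161 CPM after 3 h (log2 fold change 0.60 ± 0.09, edgeR adjusted p = 0.0679). RND3 and RHOB, small GTPases that shape the actin cytoskeleton, had log2 fold changes of 0.63 ± 0.10 and 0.51 ± 0.08 (edgeR adjusted p = 0.0679 for each). PLAUR, the receptor of urokinase, had 0.72 ± 0.12 (edgeR adjusted p = 0.0738), and TNFAIP3, an inhibitor of NF-kB signalling, 1.27 ± 0.22 (edgeR adjusted p = 0.111). On the lower side, RNF43, a membrane E3 ligase that is a Wnt target and restrains Wnt receptors, was at 29.5 and 25.2 CPM in vehicle and at 16.6 and 16.5 CPM after 3 h (-0.73 ± 0.13, edgeR adjusted p = 0.111). SMG1P2, a pseudogene whose reads may be shared with SMG1 and its other copies, had -1.79 ± 0.28 (edgeR adjusted p = 0.0679). None of these 7 passed in edgeR, while all but TNFAIP3 did in DESeq2. The groups of each did not overlap, which for RNF43 and SMG1P2 was a condition of being chosen. Over all genes tested, groups were apart on the higher side in 20.3% and on the lower side in 19.3%.

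Among nuclear noncoding RNAs, the estimates below 0 were the larger ones. NEAT1, the scaffold RNA of paraspeckles, stood at 189 and 174 CPM in vehicle and at 118 and 138 CPM after 3 h (log2 fold change -0.51 ± 0.09, edgeR adjusted p = 0.115). In mean TPM, NEAT1 went from 19 to 16.9, a smaller fall in proportion, and the reason was not tested. MALAT1, an RNA of nuclear speckles, was at 1780 and 1960 CPM and then at 1530 and 1770 CPM (-0.18 ± 0.07, edgeR adjusted p = 0.612). TALAM1, transcribed antisense to MALAT1, was at 20 and 15.3 CPM and then at 8.93 and 9.02 CPM (-0.98 ± 0.17, edgeR adjusted p = 0.111). The treated libraries lay below the vehicle libraries in all 3, as they did in 19.3% of all genes tested. For NEAT1 and TALAM1 groups that did not overlap were a condition of being chosen. None of the 3 passed in edgeR, while NEAT1 and TALAM1 passed in DESeq2. The strand setting of the counting is not given in the sources used here, so reads of TALAM1 and MALAT1 may not be told apart. Of 14 tested genes of the noncoding RNA and paraspeckle list, which does not hold TALAM1, 4 were lower at an unadjusted p of at most 0.05 (NEAT1, MALAT1, FTX and OIP5-AS1) and 0 higher, beside 3.51% and 4.35% of all genes, while the median was 0.01.

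In the lists of nuclear matrix, hnRNP, nuclear speckle and chromosome structure genes, 0 members passed in edgeR or in DESeq2. The counts at an unadjusted p of at most 0.05 stand beside 4.35% of all genes higher and 3.51% lower. Of 20 nuclear matrix and scaffold genes, 3 were higher and 0 lower at an unadjusted p of at most 0.05 (SAFB2, AKAP8L and PARP1). MATR3, a matrix protein, was split over 2 identifiers with fractional counts, one with a log2 fold change of -0.11 ± 0.06 and the other, outside the list count, with 0.53 ± 0.09 (adjusted p = 0.111 in edgeR and 0.00267 in DESeq2), so its direction is uncertain. Of 26 genes of the hnRNP family, to which HNRNPU belongs, 1 was higher (HNRNPF) and 3 lower (PTBP2 and TARDBP among them) at an unadjusted p of at most 0.05. Of 38 speckle and SR protein genes 1 was higher (CLK1) and 0 lower, and of 24 cohesin, condensin and CTCF genes 0 were higher and 3 lower (STAG2, NCAPG and TOP2B).

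In the lists of stress and damage responses PLK2 alone passed in edgeR, and in DESeq2 the p53 targets PLK3 and SERTAD1 passed as well. Of 58 p53 targets, 6 were higher and 5 lower at an unadjusted p of at most 0.05, beside 4.35% and 3.51% of all genes, with a median of -0.005. CDKN1A, the p21 cell cycle inhibitor, stood at 332 and 334 CPM in vehicle and at 381 and 376 CPM after 3 h (log2 fold change 0.18 ± 0.06, edgeR adjusted p = 0.564), and MDM2 had 0.10 ± 0.06 (edgeR adjusted p = 0.714). Of 31 genes of the integrated stress and unfolded protein responses, 5 were higher and 1 lower at that p, 20 had estimates above 0 and the median was 0.11. ATF4, a transcription factor of this response, had 0.14 ± 0.06 (edgeR adjusted p = 0.612). Of 27 interferon genes 0 had an unadjusted p of at most 0.05, and of 20 heat shock genes 0 were higher and 2 lower. Of 21 genes of the aryl hydrocarbon receptor response, which indole-like compounds can engage, 4 were higher and 0 lower at an unadjusted p of at most 0.05, with a median of 0.13, and CYP1A1, its standard marker, stood at 2.42 and 1.85 CPM in vehicle and at 2.15 and 3.42 CPM after 3 h.

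No gene of the cell cycle lists passed in edgeR, and 1, the histone gene H4C11, passed in DESeq2 (adjusted p = 5.09e-05). H4C11 stood at 118 and 99 CPM in vehicle and at 152 and 172 CPM after 3 h (log2 fold change 0.58 ± 0.10, edgeR adjusted p = 0.111). Of 43 S phase genes 7 were higher and 1 lower at an unadjusted p of at most 0.05, and of 40 replication histone genes 8 were higher and 0 lower, beside 4.35% and 3.51% of all genes. Of 53 genes of G2 and mitosis 2 were higher and 10 lower, with a median of -0.05. That last count was smaller without vehicle replicate 2 and without either 3 h library. Without either 3 h library the share of all genes lower at that p was smaller as well. With a GC correction the count was 3, beside 2.99% of all genes. Of 18 small structural RNAs 5 were higher and 0 lower, led by RN7SL1, the RNA of the signal recognition particle, with a log2 fold change of 0.23 ± 0.04 (adjusted p = 0.0783 in edgeR and 0.00869 in DESeq2). These RNAs are transcripts whose share of counts was larger in both 3 h libraries, as given above, and the part of that share in the other results was not tested.

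The second set, which shares no library with the time course, gave lower estimates at the same 3 h for the raised genes described above. Its edgeR fit called 9 of 15968 genes (0.0564%), 5 higher (0.0313%) and 4 lower (0.0251%), and each of the 4 libraries left out in turn gave 65 to 88. The 10 genes described above as raised in the time course had a median log2 fold change of 0.90 there and of -0.05 in the second set. In the second set 0 of the 10 were higher at an unadjusted p of at most 0.05 (1.49% of all genes), and DUSP5 and SEMA7A were lower (1.69% of all genes). The vehicle and 3 h levels of AREG, normalised within that set, were 87.9 and 86.2 CPM and 84.4 and 85.7 CPM. Those of THBS1 were 69.5 and 67.6 CPM in vehicle and 64 and 67.9 CPM after 3 h.

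FOS in the second set was at 106 and 80.4 CPM in vehicle and at 73.9 and 77.6 CPM after 3 h. Its log2 fold change there was -0.31 ± 0.10 (SE, edgeR unadjusted p = 0.00834), short of the adjusted threshold. FOS was thus lower after 3 h in both sets, with the smaller change in the second. The difference of its response between the sets was -0.90 on the log2 scale (edgeR adjusted p = 0.201). A fit over the 8 libraries tested this difference for 18873 genes, and 12 passed (0.0636%), all higher in the time course. AREG, DUSP5, EPHA2, THBS1, SEMA7A, C1orf116, CCN1 and AMOTL2 were among them. For DUSP5 the time-course response exceeded the other by 1.09 ± 0.10 on the log2 scale (edgeR adjusted p = 0.00245), and for THBS1 by 1.10 ± 0.12 (edgeR adjusted p = 0.00524). For DKK1 and PLK2 the difference did not pass, at edgeR adjusted p values of 0.107 and 0.477. Leaving out time-course vehicle replicate 1 gave 145 genes, time-course 3 h replicate 2 gave 5, and either 3 h library of the second set gave 6. The sets also differ in depth (13034551 to 16402858 counts in the second), and what the word control stands for is not given in the sources used here.

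The gene lists differed in the same way. At an unadjusted p of at most 0.05, 0 of the YAP and TEAD targets were higher and 1 lower in the second set, and 0 of the ERK and EGF receptor list were higher and 2 lower. Of the immediate early genes 1 was higher and 5 were lower there. These counts stand beside 1.49% of all genes higher and 1.69% lower in the second set, so 0 higher in lists of this size says little. The test of the difference between sets gave an unadjusted p of at most 0.05 with a larger response in the time course for 11 YAP and TEAD targets, 10 genes of the ERK and EGF receptor list and 9 immediate early genes, beside 3.51% of all genes. That test uses the same time-course libraries, so these counts are not independent of the time-course counts given above. The lists were also chosen with earlier results of these data known. JUN, MYC and IER3 had differences of 0.68, 0.47 and 0.53 on the log2 scale, none past the adjusted threshold (edgeR adjusted p = 0.282, 0.123 and 0.16).

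**Figure D4:**
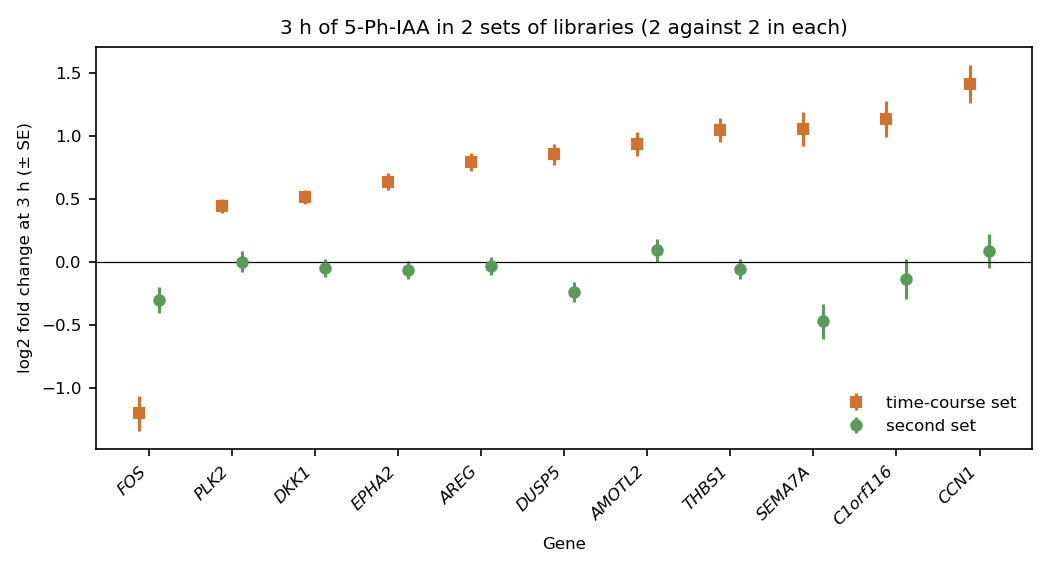
Log2 fold change after 3 h of 5-Ph-IAA with its SE (vertical axis) of 11 called genes (horizontal axis), as orange squares in the time-course set that chose them and as green circles in the second set, 2 libraries against 2 in each. In the second set AMOTL2 is the highest of the 10 genes shown as raised in the time course, at 0.09, and SEMA7A the lowest, at -0.47.

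The 12 h libraries of the time course extend these values in time, with the same vehicle libraries as baseline, so the comparisons are not independent and no overlap was drawn from them. The titles of the vehicle libraries give no treatment time, so which of the times they match is not known. Against vehicle, 2163 of 19049 genes passed at 12 h (11.4%), and 961 without 12 h replicate 1. In a fit of the 6 libraries, AREG stood at 126 and 122 CPM in vehicle, 214 and 213 CPM at 3 h, and 146 and 156 CPM at 12 h. THBS1 was at 45.1 and 43.7, then 84.9 and 96.7, then 52.6 and 50.4 CPM. DUSP5 was at 68.9 and 66.4, then 119 and 123, then 70.8 and 66.6 CPM. In these 3 genes the 12 h libraries lay between the earlier groups or level with vehicle, with log2 fold changes against vehicle of 0.28 (edgeR adjusted p = 0.0359), 0.22 (0.207) and 0.03 (0.882). DKK1 and PLK2 were at -0.11 and -0.06 at 12 h (edgeR adjusted p = 0.32 and 0.596). EPHA2, AMOTL2 and CCN1 had larger estimates, 0.40, 0.59 and 0.77 (edgeR adjusted p = 0.00389, 0.00367 and 0.0244). FOS was at 37.3 and 30.4, then 15.2 and 14, then 28.5 and 26.8 CPM, with -0.28 against vehicle at 12 h (edgeR adjusted p = 0.254). NEAT1, at -0.51 after 3 h, was at 0.56 after 12 h (edgeR adjusted p = 0.00187). One 12 h library is shallow, with 3535163 counts against 29578916 in the other.

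**Figure D5:**
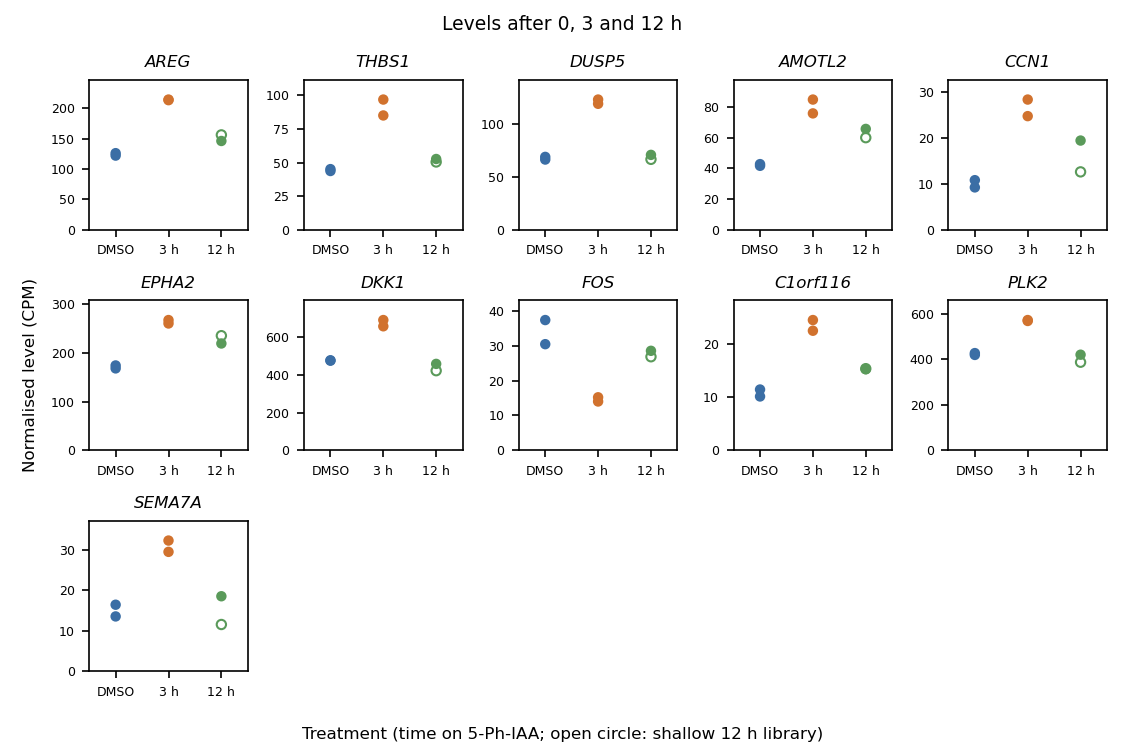
Normalised level in CPM (vertical axes, each from 0) of 11 called genes in the libraries with vehicle, 3 h and 12 h of 5-Ph-IAA (horizontal axes), each point a library and the open circle the shallow 12 h library. At 3 h the 10 raised genes shown have their highest levels and FOS its lowest.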

How the data were processed

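RNA was extracted with Trizol and made into stranded total RNA libraries, per the labels' protocols. The deposited gene tables hold expected counts, estimated by RSEM per the file headers, and TPM values made by the authors from them, for 78686 identifiers. The submitters' processing notes name STAR 2.7.10b, RSEM, DESeq2 1.48.1 and hg38 (GRCh38), without roles. The annotation release is not given in the sources used here. Symbols matched 61463 identifiers and GENCODE 29 positions 57288.

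Expected counts were rounded and fitted with edgeR 4.0.16 (R 4.3.3), with TMM factors, filterByExpr (minimum count 10, minimum total 15), quasi-likelihood F tests, two-sided, and Benjamini-Hochberg adjustment over all genes tested, threshold 0.05. The fit of 3 h against vehicle used the 4 libraries alone, since 1 library at 12 h is shallow. With 2 libraries a group, a permutation test of a single gene cannot pass the threshold. An SE is the log2 fold change divided by the square root of F. TPM compares genes per length and CPM compares libraries. The fit was tested on simulated data with known changes.

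Members and gene lists were chosen with earlier results of these data known. The genes named are HNRNPU, those past the threshold (up to 15 in each direction, filled with the next by p to 8), up to 4 members of each list or its 2 most expressed, and up to 10 that differ between sets. Those taken by direction, fillers included, needed a symbol, a mean log2 CPM of at least 1 and groups that did not overlap. Some genes that this rule picks are not reported here. Other genes named were chosen after their values were seen. Alternatives were DESeq2 1.42.0, RLE factors, other count minimums, GC correction, a replicate block, protein-coding genes, whole counts, other sets of libraries and each library left out. Promoters are from RefSeq (GRCh38.p14).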

Additional observations from a re-analysis of the deposited data

Results flagged for a closer look

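In 12 genes the response to 3 h of 5-Ph-IAA differed between the time-course set and the second set in the edgeR test of the difference itself (8 libraries, 2 in each group), and in all 12 the time-course estimate was the higher; 11 are given here. The difference in log2 fold change was 1.091 ± 0.105 (SE) for DUSP5, 1.103 ± 0.12 for THBS1 and 0.828 ± 0.0946 for AREG. It was 1.531 ± 0.196 for SEMA7A, a gene whose estimate was 1.06 in the time course and -0.47 in the second set. EPHA2 differed by 0.704 ± 0.0918 and C1orf116 by 1.273 ± 0.2. The YAP and TEAD targets CCN1 and AMOTL2 differed by 1.331 ± 0.211 and 0.845 ± 0.134.

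H4C11, a replication-dependent histone H4 gene, and PLAU passed this test without passing in edgeR in either set alone. In DESeq2 both passed in the time course (adjusted p = 5.09e-05 for H4C11 and 2.83e-06 for PLAU). H4C11 had a log2 fold change of 0.58 in the time course and -0.27 in the second set, a difference of 0.851 ± 0.123 (edgeR adjusted p = 0.0285). PLAU had 0.60 and -0.22, a difference of 0.831 ± 0.13 (edgeR adjusted p = 0.048). SLC2A3P1, with a fitted difference of 9.176 ± 1.21, rests on vehicle libraries at 0 counts and on fractional counts, so this size depends on the prior count and is not a bound.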

How the results depend on the processing

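All 17 genes called at 3 h in the time course were also called with DESeq2 (68 genes), with RLE factors, without the low-count filter (266), with a minimum count of 50 (34) and with a GC correction. Protein-coding genes alone gave 30, and genes with whole counts alone 28, of which 15 and 11 were among the 17, since fewer genes were tested. Each library left out in turn gave 21 to 1168, where the lone library of a group is assumed to vary like the others. In the second set the number was 3 with DESeq2, 84 without the filter, 4 with a minimum count of 50, and 65 to 88 with 1 library left out. For the difference between sets it was 40 with DESeq2, 177 without the filter, 7 with the GC correction, and 5 to 145 with 1 library left out. At 12 h it was 961 to 2446 with 1 library left out. The cause of these shifts was not tested.

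With the replicate number as a block, 31 genes were called at 3 h, all 17 among them, and with the GC correction added 21. In the difference between sets the GC correction with the block gave 5. Within the time course, same-numbered libraries deviated from their group means with a correlation of -0.035 across genes, and within the second set of 0.004, so the numbers were taken as names only.

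AREG, THBS1, DUSP5, AMOTL2, CCN1 and FOS passed in every alternative that could test them, with log2 fold changes between 0.76 and 0.83 for AREG and between -1.35 and -1.04 for FOS. With all 14 libraries in 1 fit, EPHA2 (adjusted p = 0.128), DKK1 (0.0827) and PLK2 (0.136) did not pass in edgeR, and with the 6 time-course libraries SEMA7A (0.0672) did not. None of the 15 called genes with an estimate in these alternatives changed direction. In the simulation, with the number of changed genes given above, 76.1% of 2-fold changes were recovered.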

Other observations

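The genes raised at 3 h in the time course were short beside the rest. The 14 with a position in GENCODE 29 had a median span of 12.9 kb from first to last exon, against 26 kb over all genes tested. At an unadjusted p of at most 0.05 the median span was 22.7 kb in the 782 genes that were higher and 39.5 kb in the 631 that were lower. These are descriptions without a test.

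Of 31 cholesterol synthesis and SREBP genes tested, 1 was higher and 4 were lower at an unadjusted p of at most 0.05, beside 4.35% and 3.51% of all genes, and the median log2 fold change was -0.065. None passed in edgeR, and SCD passed in DESeq2 (adjusted p = 0.000753). SCD, the stearoyl-CoA desaturase, stood at 544 and 581 CPM in vehicle and at 459 and 458 CPM after 3 h (log2 fold change -0.29 ± 0.06, edgeR adjusted p = 0.184). Of 27 hypoxia and glycolysis genes, 1 was higher and 4 were lower, with a median of -0.12. In the second set SCD had a log2 fold change of 0.02 and the hypoxia and glycolysis list a median of 0.07.

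Of 18 Wnt targets tested, 4 were higher (DKK1, MYC, BMP4 and CCND1) and 4 lower (RNF43, AXIN2, SOX4 and SP5) at an unadjusted p of at most 0.05, beside the same shares of all genes. AXIN2, a feedback inhibitor of the pathway, stood at 8.78 and 5.03 CPM in vehicle and at 4.23 and 4.47 CPM after 3 h (log2 fold change -0.67 ± 0.29, edgeR adjusted p = 0.615).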
